A study of Mus musculus with 6 samples.

Results

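Respiratory chain and ATP synthase genes were followed in pre-B cells, the B-lymphoid progenitors of bone marrow that have rearranged or are rearranging their immunoglobulin genes, of control mice and of mice lacking the transcription factor Mef2c in blood-forming cells. The genes were chosen by symbol, as nuclear genes named for subunits of complexes I to V, for cytochrome c or, under the names Ndufaf1 to Ndufaf8, for complex I assembly factors. Of 17372 genes with a single-symbol probe set on Affymetrix mouse expression arrays, 86 met this rule, each read through its brightest probe set. They comprised 32 genes of complex I, 3 of complex II, 9 of complex III, 1 cytochrome c gene, 17 genes of complex IV, 17 of complex V and 7 Ndufaf genes. The symbols are those of the annotation, with these exceptions to their order: the product of Ndufa4 is now placed with complex IV, and that of Cox7a2l with respiratory supercomplexes.

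Each group had 3 arrays, at an age of 9 months. The Mef2c-deficient group is labelled Vav-Cre Mef2cfl/fl, in which a Cre recombinase driven by the Vav promoter deletes the floxed alleles in haematopoietic cells, so that all blood lineages and not only B cells carry the deletion. Per the study's methods, control mice carried floxed alleles without Cre or 1 intact allele with it, and which of these each control array came from is not given in the sources used here. The samples are called independent in the study but no animals are named, so a p-value here rests on the spread between arrays, part of which may be technical. The deleted gene was not analysed here and gives no check of the labels. The cells had been sorted as pre-B cells by flow cytometry, and Cd79b and Cd24a, which mark B-lineage progenitors, ran from 18.76 to 19.22 and from 18.89 to 19.04 on the log2 scale in control samples, against 18.20 to 19.06 and 18.12 to 18.74 in Mef2c-deficient samples. All values are log2 of the deposited intensity. The exponent by which that table left the log scale is not settled, and if its base was e rather than 2, every log2 difference below would be 0.69 times as large.

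The respiratory chain passes electrons from NADH, at complex I, and from succinate, at complex II, to coenzyme Q, then through complex III and cytochrome c to oxygen at complex IV. Complexes I, III and IV pump protons across the inner mitochondrial membrane, and complex V, the ATP synthase, lets them return and makes ATP. Catalytic core subunits of complexes I, III and IV and a part of complex V are encoded in mitochondrial DNA, while the genes described here are nuclear, and many are known targets of the factors NRF1, GABP (an Ets factor) and YY1. Large pre-B cells divide rapidly under interleukin-7 and draw on both glycolysis and respiration, whereas small pre-B cells rest while they rearrange light chain genes.

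Of the 86 genes, 71 had an entry in a RefSeq promoter table of build GRCm38.p6, with 76 promoters of 250 bases before to 50 after the start of transcription. The NRF1 core CGCATGCG, searched on both strands, was in 11 of the 76 (14.5%) and in 1.87% of all 32851 promoters. The Ets core CCGGAAG was in 19 (25%) against 8.86%, and the YY1 core AAGATGGC in 9 (11.8%) against 2.75%. The MEF2 consensus, with A or T alone between its outer bases, was in 0 of the 76 and in 0.557% of all promoters. A looser pattern, CTA and TAG held any 4 bases apart, was in 2 promoters, those of Cox5b and Ndufaf5, or 2.63% against 3.69%, and the E-box CANNTG was in 68.4% against 72.3%. The letters of a motif in a window do not show that a factor binds there. Shown here are the 150 bases before the start for a promoter with an NRF1 core (Cycs), for 1 of the 2 listed promoters of Atp5j, which holds NRF1, YY1 and Ets cores in that order, for 2 genes with an Ets core whose Mef2c-deficient samples all lay below the control samples (Ndufs3 and Ndufaf1) and for Atp5b, which also lay below and whose window holds none of these 3 cores. Capitals mark the cores.
Cycs, chr6:50566570-50566719, minus strand: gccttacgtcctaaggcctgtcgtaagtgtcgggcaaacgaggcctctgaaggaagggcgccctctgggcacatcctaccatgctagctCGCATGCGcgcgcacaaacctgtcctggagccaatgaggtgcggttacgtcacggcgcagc
Atp5j, chr16:84834977-84835126, minus strand: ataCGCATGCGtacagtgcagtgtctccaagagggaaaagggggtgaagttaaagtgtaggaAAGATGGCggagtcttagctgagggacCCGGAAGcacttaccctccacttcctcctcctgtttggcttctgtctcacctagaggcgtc
Ndufs3, chr2:90904722-90904871, minus strand: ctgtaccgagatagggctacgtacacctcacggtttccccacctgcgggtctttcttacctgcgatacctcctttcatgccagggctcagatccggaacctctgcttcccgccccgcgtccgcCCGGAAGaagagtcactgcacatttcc
Ndufaf1, chr2:119662835-119662984, minus strand: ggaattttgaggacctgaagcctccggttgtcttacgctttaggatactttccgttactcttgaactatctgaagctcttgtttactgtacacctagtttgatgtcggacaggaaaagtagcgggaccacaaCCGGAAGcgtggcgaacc
Atp5b, chr10:128083157-128083306, plus strand: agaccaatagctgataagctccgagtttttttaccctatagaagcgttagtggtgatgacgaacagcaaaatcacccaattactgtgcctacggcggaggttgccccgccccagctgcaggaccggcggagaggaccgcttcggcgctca

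Probe sets were tested if their mean log2 lay above the 40th percentile of the table (7.26), and 79 of the 86 genes passed, among 11271 genes tested with limma. None of the 79 passed an adjusted p of 0.05 in limma, where 0.0177% of all genes (2 genes) did as lower and 0.0% as higher, and the smallest adjusted p was 0.131. Before adjustment, with p under 0.05, Uqcrq, Atp5b, Ndufaf1, Ndufa10 and Atp5a1 were lower in Mef2c-deficient samples, which is 5 genes or 6.33% where 20.9% of all genes were lower, and Ndufc2 and Ndufaf8 were higher, which is 2.53% where 5.32% were. By the methods' t-test 7 genes (8.86%, against 16.9% of all genes) were lower and 0 (against 5.69%) higher before adjustment, and none passed after it. The study's thresholds, a p of 0.05 or less with a 2-fold change, took Ndufaf1 as lower and Ndufc2 and Ndufaf8 as higher, and took 14.7% of all genes as lower and 2.64% as higher. If the base of the deposited scale was e, Ndufaf1 (1.71-fold) and Ndufaf8 (1.70-fold) would miss that fold. The median log2 difference, Mef2c-deficient minus control, was -0.15 over the 79 genes and -0.36 over all genes tested. A lower mean was seen for 46 of the 79 genes and for 7026 of the 11271 genes tested. The counts of lower means given below for each complex are to be set beside that share of all genes.

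The arrays of the Mef2c-deficient group differed from each other in these genes. Relative to each gene's control mean, the median over the 79 genes was 0.04, -0.06 and 0.02 in control replicates 1 to 3, and -0.34, -0.56 and 0.42 in Mef2c-deficient replicates 1 to 3. Over all genes the 3 Mef2c-deficient medians were -0.37, -0.21 and -0.24, so the third replicate stood apart in the respiratory genes and not in the median over all genes. It lay above all 3 control samples for 48 of the 79 genes and below them for 16, against 17 and 41 in replicate 1 and 4 and 56 in replicate 2. Of all genes, 30.3% lay above and 47.5% below in replicate 3, 23.0% and 52.9% in replicate 1, and 28.3% and 45.6% in replicate 2, so the counts of replicate 1 were near those of all genes. A pattern of lower in replicates 1 and 2 and higher in replicate 3 was seen in 37 of 79 genes (46.8%) and in 10.7% of all genes. Samples were also taken in pairs of the same replicate number, though no label states a pairing. In this way 20 of the 79 genes (25.3%, against 39.8% of all genes) were lower in all 3 pairs and 7 (8.86%, against 19.7%) higher. Among the 20 were 8 with overlapping groups, Ndufa9, Ndufs1, Ndufaf3, Sdhb, Uqcrc2, Cox6a1, Atp5c1 and Atp5g3. The SD between Mef2c-deficient samples was larger than that between control samples for 67 of the 79 genes. The share of all genes for which this held was not counted. Over all genes tested, control arrays correlated with each other at 0.957 to 0.986 and Mef2c-deficient arrays at 0.868 to 0.943. A wider spread of the Mef2c-deficient arrays was thus not confined to the respiratory genes.

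**Figure D1:**
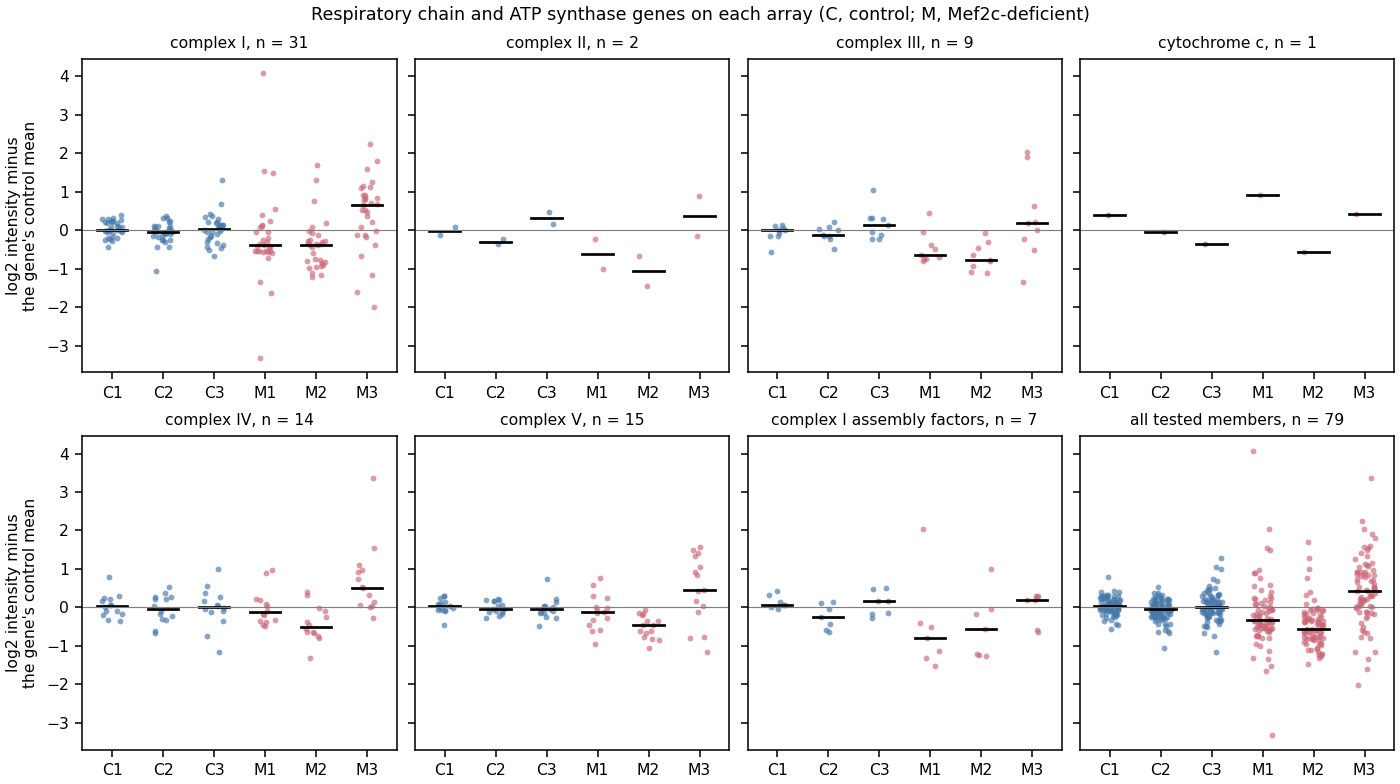
Each point is 1 gene on 1 array, as log2 intensity minus the gene's mean over the control samples (vertical axis), for control replicates (C1 to C3, blue) and Mef2c-deficient replicates (M1 to M3, red). Black lines are medians over the genes of a panel. Over all 79 genes the Mef2c-deficient medians were -0.34, -0.56 and 0.42.

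Other markers moved with the third replicate. Of 12 markers of plasmacytoid dendritic cells, 8 were tested, and their median over control replicates 1 to 3 was -0.57, -0.32 and 0.99 and over Mef2c-deficient replicates 0.67, 1.53 and 3.81. Their summed level ran from 14.56 to 16.45 (log2) in control samples and from 15.75 to 19.75 in Mef2c-deficient samples, and Siglech, a defining surface receptor, read 18.54 in Mef2c-deficient replicate 3. Neutrophil markers (7 of 9 tested) had medians of -0.01, -1.38 and 4.80 in the 3 Mef2c-deficient replicates, with summed levels of 15.05 to 17.44 in control samples and 15.49 to 20.29 in Mef2c-deficient samples. S100a8 and S100a9, the calprotectin genes, read 18.96 and 19.13 in replicate 3. Monocyte and macrophage markers (6 of 8 tested) summed to 12.61 to 14.62 and to 12.23 to 17.25 in the same order, and pre-B cell markers (10 of 12 tested) to 20.91 to 21.13 and to 20.33 to 20.91. The pre-B cell list had a median difference of -0.66, with -0.19, -0.58 and -0.94 in Mef2c-deficient replicates 1 to 3. Of its 10 tested genes 3 were lower with p under 0.05 before adjustment in limma, where 20.9% of all genes were. For 4, Ebf1 (-1.15), Il7r (-1.09), Rag1 (-1.18) and Cd24a (-0.48), all Mef2c-deficient samples lay below all control samples, as for 27.1% of all genes. The part of plasmacytoid dendritic cells, neutrophils, monocytes and macrophages in the values of respiratory genes was not tested. In sorted bulk samples, fewer cells of a type and less RNA per cell cannot be told apart. Without Mef2c-deficient replicate 3, p was under 0.05 before adjustment for 17 genes as lower (21.5%, against 23.7% of all genes) and for 3 as higher (3.80%, against 7.07%), and the median over the 79 genes was -0.38, against -0.32 over all genes.

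Complex I, the NADH dehydrogenase, had 31 tested genes with a median difference of -0.13, of which 19 had a lower mean, and with 1 array left out that median ran from -0.36 to 0.05. Ndufc2, an accessory subunit of the membrane arm, read 8.56, 8.26 and 7.70 in control samples and 12.25, 9.87 and 9.32 in Mef2c-deficient samples. All 3 Mef2c-deficient samples lay above the control samples, the first by far the most, and the difference was 2.31 (SE 0.73, n = 3 per group, adjusted p = 0.133). Ndufc2 was the only one of the 79 genes higher with groups that did not overlap, where 10.6% of all genes were. Its probe set was dim in control samples, with a mean of 8.17 against the filter value of 7.26. Ndufa10, an accessory subunit, was 14.90, 14.85 and 15.04 in control samples against 13.58, 14.33 and 14.25. Every Mef2c-deficient sample lay below every control sample, and the difference was -0.88 (SE 0.31, adjusted p = 0.148).

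Groups were apart with lower values for 4 further complex I genes, named here after their values were seen where the rule for named genes did not reach them. Ndufs8, which carries iron-sulphur clusters in the core of the enzyme, was 15.54, 15.07 and 15.40 in control samples and 14.74, 14.22 and 14.94 in Mef2c-deficient samples, a difference of -0.70 (SE 0.31). For Ndufv1, the subunit that binds NADH, the difference was -0.49 (SE 0.30), with Mef2c-deficient replicate 3, at 13.64, close under the lowest control sample, 13.71. Ndufs3, another core subunit, differed by -0.28 (SE 0.27). The accessory subunit Ndufb8 differed by -0.79 (SE 0.40), with the lowest value, 7.73, in Mef2c-deficient replicate 3. These 4 had adjusted p values between 0.201 and 0.478 in the fit over all genes.

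Other complex I genes had overlapping groups. Ndufa9 was 14.76, 14.51 and 15.20 in control samples and 13.18, 13.67 and 14.69 in Mef2c-deficient samples, so the first 2 replicates lay below and the third within the control range. Its difference was -0.98 (SE 0.44, adjusted p = 0.20), and -1.40 without the third replicate. Set against the control sample of the same number, all 3 Mef2c-deficient samples differed downward, with -1.58, -0.84 and -0.51. On the other side, Ndufa6 differed by 0.81 (SE 0.40), Ndufb2 by 0.69 (SE 0.37) and Ndufa7 by 0.91 (SE 0.58), with adjusted p values of 0.230 to 0.308. Ndufa7 read 14.28, 12.45 and 14.39 in Mef2c-deficient samples around a control range of 12.13 to 13.16. Ndufa4 differed by 0.05 (SE 0.40) and Ndufa4l2, its hypoxia-inducible relative, by 0.34 (SE 0.32).

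**Figure D2:**
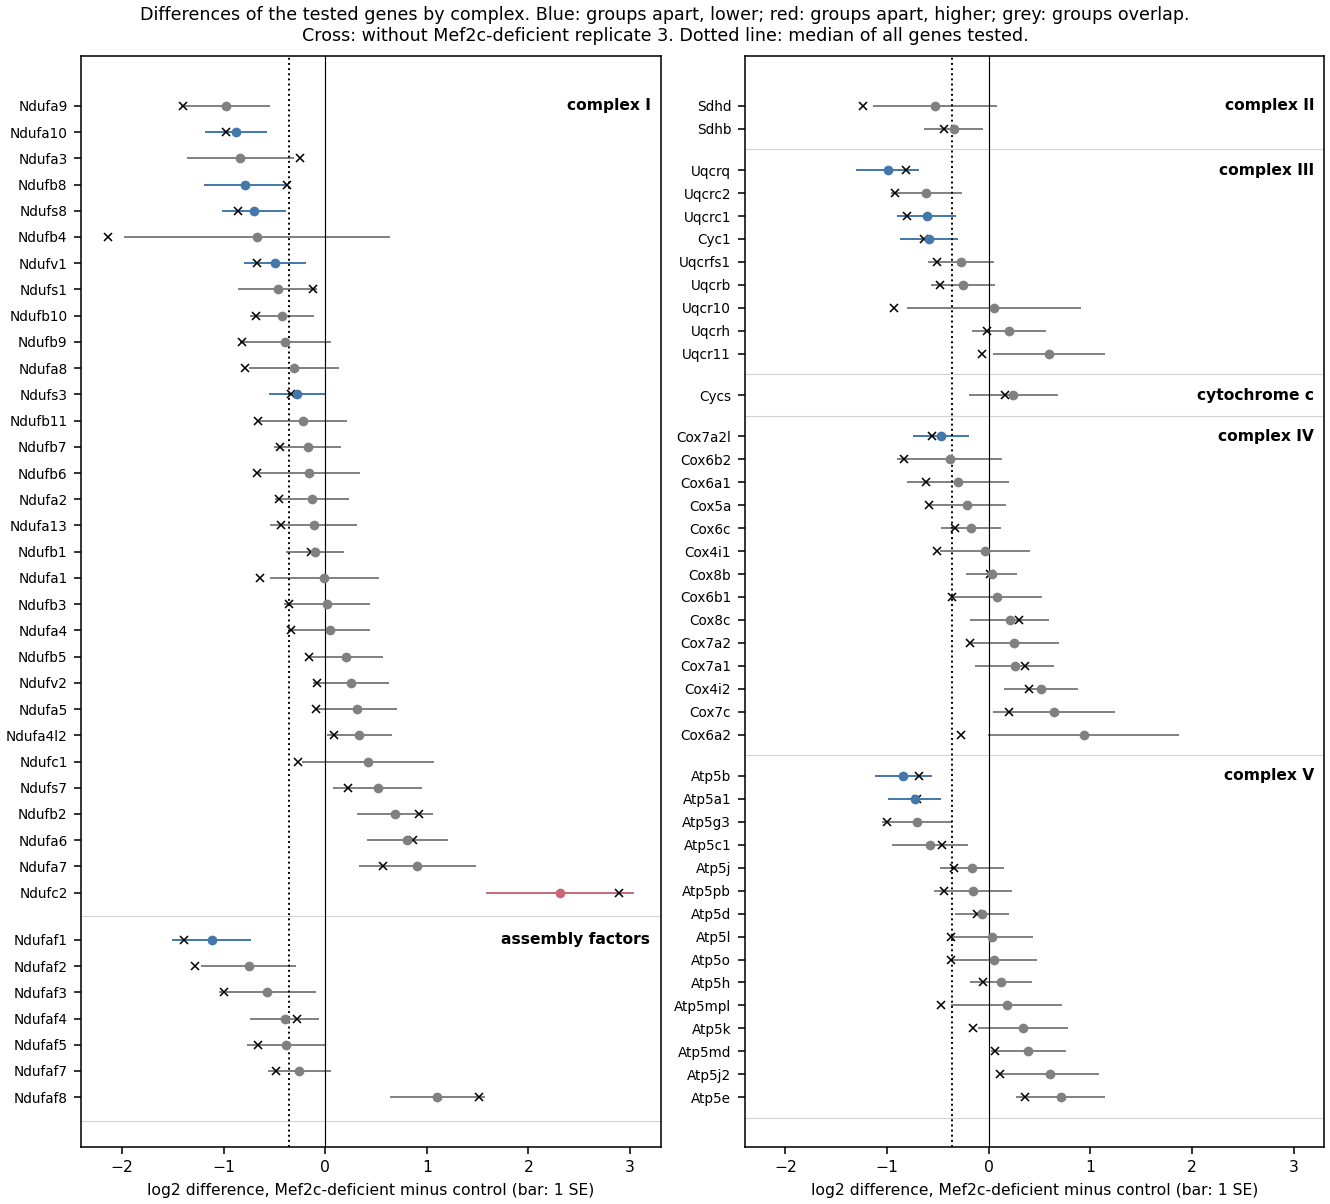
Log2 difference, Mef2c-deficient minus control (horizontal axis), of each of the 79 tested genes by complex, with bars of 1 SE from limma (n = 3 per group). Blue and red points are genes whose groups do not overlap, lower and higher, crosses are the difference without Mef2c-deficient replicate 3, and the dotted line is the median of all genes tested, -0.36. The cross lies to the left of the point for 65 genes, a share that was not counted over all genes. Replicate 3 was the highest of the Mef2c-deficient samples for 60 of the 79 genes (75.9%, against 37.3% of all genes).

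The 7 Ndufaf genes, which help to build complex I and are not part of it, had a median of -0.40, and 6 had a lower mean, though the median turned to 0.06 when arrays were centred on the genes tested. Ndufaf1, a chaperone of an early assembly intermediate, was 10.46, 9.46 and 10.19 in control samples and 8.52, 8.78 and 9.45 in Mef2c-deficient samples. Its groups did not overlap, though the highest Mef2c-deficient sample lay just under the lowest control sample, and the difference was -1.12 (SE 0.39, adjusted p = 0.148). Ndufaf8, a partner of Ndufaf5, ran the other way, with 11.06, 10.70 and 10.47 in control samples and 12.77, 11.74 and 11.03 in Mef2c-deficient samples. The third replicate lay within the control range, and the difference was 1.10 (SE 0.46, adjusted p = 0.185). Ndufaf2, Ndufaf3 and Ndufaf4 differed by -0.75 (SE 0.47), -0.57 (SE 0.48) and -0.40 (SE 0.34), and the Mef2c-deficient replicate 3 values of the first 2, 13.35 and 13.55, lay among or above the control values.

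Complex II, succinate dehydrogenase, also belongs to the citric acid cycle, and 2 of its 3 genes in the table were tested. Sdhb, the iron-sulphur subunit, was 15.71, 15.40 and 15.81 in control samples and 15.42, 14.97 and 15.49 in Mef2c-deficient samples, a difference of -0.34 (SE 0.29, adjusted p = 0.420). Sdhd, a membrane anchor, was 14.02, 13.78 and 14.60 against 13.13, 12.67 and 15.01, a difference of -0.53 (SE 0.61, adjusted p = 0.541). For Sdhd the first 2 Mef2c-deficient samples lay below all control samples and the third above them.

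Complex III had 9 tested genes with a median of -0.27 (-0.63 without Mef2c-deficient replicate 3), and 6 had a lower mean. Cyc1, cytochrome c1, read 15.09, 15.09 and 15.56 in control samples and 14.76, 14.47 and 14.74 in Mef2c-deficient samples. The groups did not overlap and the third replicate was here like the others, with a difference of -0.59 (SE 0.28, adjusted p = 0.220). Uqcrc1, a core protein of the matrix side, was 14.45, 14.40 and 14.36 against 13.60, 13.59 and 14.17, a difference of -0.61 (SE 0.29, adjusted p = 0.214). Uqcrc2, its partner, differed by -0.61 (SE 0.35) with the third replicate, 14.73, inside the control range. The small subunit Uqcrq was 8.56, 8.40 and 8.95 in control samples and 7.93, 7.71 and 7.29 in Mef2c-deficient samples, a difference of -0.99 (SE 0.31, adjusted p = 0.131). A second and dimmer probe set of Uqcrq, under the filter, differed by 0.55 the other way, so the direction for this gene rests on the probe set used.

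Among the other small subunits, Uqcr11 was 12.96, 12.95 and 14.93 in Mef2c-deficient samples around a control range of 12.86 to 13.31, a difference of 0.59 (SE 0.55). Uqcr10 read 13.61, 13.23 and 16.38 against 13.79, 13.86 and 15.40 in control samples, a difference of 0.05 (SE 0.86), and in both groups the third replicate was the highest. A second, dimmer probe set of Uqcr10, which passed the filter, differed by 0.68. Uqcrh, the hinge protein, differed by 0.20 (SE 0.36). Cytochrome c itself, Cycs, was 16.46, 16.01 and 15.70 in control samples and 16.96, 15.48 and 16.47 in Mef2c-deficient samples, a difference of 0.24 (SE 0.44, adjusted p = 0.686) with no order between the groups. A second, dim probe set of Cycs under the filter differed by -1.30, with 4.57 to 5.24 in control samples and 3.38 to 3.99 in Mef2c-deficient samples, so the 2 probe sets of this gene disagree.

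Complex IV, cytochrome c oxidase, had 14 tested genes with a median of 0.06, and 6 had a lower mean. That median turned to -0.30 without Mef2c-deficient replicate 3 and to -0.18 with a filter at the 60th percentile. Cox7a2l, which links complexes III and IV, was the only one whose groups did not overlap, with 17.92, 18.23 and 17.88 in control samples and 17.54, 17.36 and 17.73 in Mef2c-deficient samples. Its difference was -0.47 (SE 0.27, adjusted p = 0.279). The widely expressed isoforms Cox4i1, Cox6a1, Cox6b1 and Cox7a2 had differences of -0.04 (SE 0.44), -0.31 (SE 0.50), 0.08 (SE 0.45) and 0.25 (SE 0.44), and Cox6c and Cox7c of -0.18 (SE 0.29) and 0.65 (SE 0.60). Cox4i1 showed the common pattern of the arrays, with 16.09, 15.78 and 17.36 in Mef2c-deficient samples below, below and above a control range of 16.28 to 16.71.

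Isoforms that are typical of other tissues were also on the arrays. Cox6a2, the heart and skeletal muscle form of subunit 6a, which is also known from mouse plasmacytoid dendritic cells, read 7.30, 7.42 and 8.18 in control samples and 7.47, 7.25 and 10.99 in Mef2c-deficient samples. Only Mef2c-deficient replicate 3 stood out, so the difference of 0.93 had an SE of 0.94 (adjusted p = 0.491), and without that array it was -0.28. The same array had the highest medians of plasmacytoid dendritic cell (3.81), neutrophil (4.80) and monocyte and macrophage markers (1.63). Of the 6 tested monocyte and macrophage markers, 4 lay above all control samples in that array and 1 below. Their median rests in part on Cd14, which passed the filter through its Mef2c-deficient mean (9.16, against 7.18 in control samples). Heart and skeletal muscle markers (5 of 10 tested) had medians of 0.43, 0.50 and 0.72 in the Mef2c-deficient replicates. Their summed levels were 10.03 to 10.37 in control and 10.54 to 10.85 in Mef2c-deficient samples. All 5 were dim, with control means of 7.34 (Myl2) to 8.39 (Des) against the filter value of 7.26. Over all genes tested with a mean log2 under 8.99, in 3 groups from the dimmest up, median differences were 0.31, 0.33 and 0.20. The median over all genes tested was -0.36. How much of the muscle marker difference goes with dimness was not tested. The part of plasmacytoid dendritic cells, neutrophils, monocytes, macrophages or muscle cells in the Cox6a2 value was not tested. Cox7a1 and Cox8b, further muscle isoforms, differed by 0.26 (SE 0.39) and 0.03 (SE 0.25). Cox4i2, a hypoxia-regulated isoform, differed by 0.51 (SE 0.36), and the testis isoforms Cox6b2 and Cox8c by -0.39 (SE 0.52) and 0.20 (SE 0.39).

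Complex V had 15 tested genes with a median of 0.03 (-0.37 without Mef2c-deficient replicate 3), and 7 had a lower mean. Its catalytic head, a ring of alpha and beta subunits, held both genes of the complex that were among the 5 lower ones. Atp5b, the beta subunit, was 18.05, 17.89 and 18.03 in control samples and 17.38, 17.23 and 16.84 in Mef2c-deficient samples, a difference of -0.84 (SE 0.28, adjusted p = 0.140). Atp5a1, the alpha subunit, was 17.07, 17.02 and 16.87 against 16.41, 16.16 and 16.22, a difference of -0.73 (SE 0.26, adjusted p = 0.151). For both, all Mef2c-deficient samples lay below all control samples, and the third replicate did not stand above the others. The deposited values of Atp5b were 1.79-fold and those of Atp5a1 1.65-fold lower in the mean. Atp5c1, the gamma subunit of the central stalk, differed by -0.58 (SE 0.38) with its lowest value in replicate 3, 10.28. Atp5e, the epsilon subunit of the same stalk, read 17.60, 16.78 and 18.26 against 17.14, 17.02 and 16.36 in control samples, a difference of 0.71 (SE 0.44).

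Membrane subunits of the enzyme were also read. Atp5g3, the one gene of the proton-carrying c-ring that was tested, was 16.80, 16.78 and 17.12 in control samples and 15.95, 15.85 and 16.78 in Mef2c-deficient samples, a difference of -0.71 (SE 0.34, adjusted p = 0.221), and the third replicate lay at the edge of the control range. Atp5j2, Atp5k and Atp5md, small membrane subunits, had differences of 0.60 (SE 0.49), 0.34 (SE 0.44) and 0.39 (SE 0.37), and each had its highest value in Mef2c-deficient replicate 3, at 16.97, 18.28 and 16.10.

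**Figure D3:**
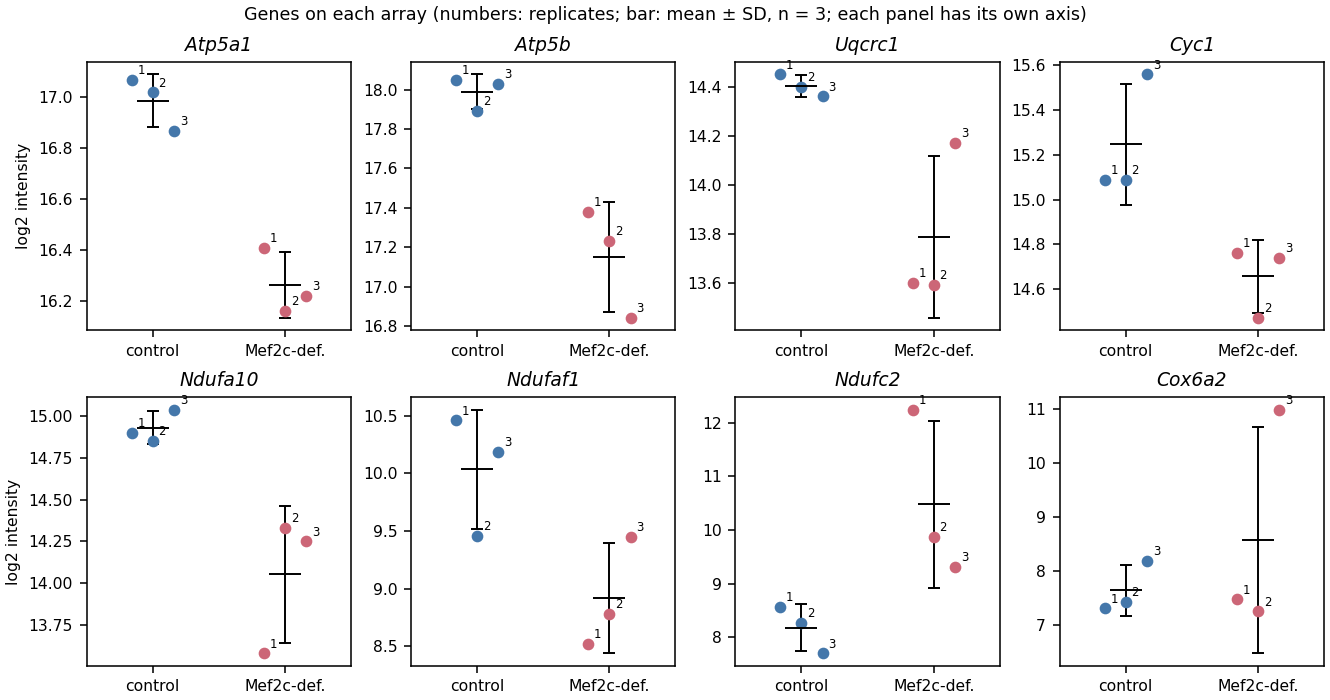
Log2 intensity (vertical axis, own range in each panel) of 8 genes on the control (blue) and Mef2c-deficient (red) arrays, with replicate numbers beside the points and mean ± SD (n = 3 per group). Groups do not overlap for any gene shown but Cox6a2, which was raised in Mef2c-deficient replicate 3 only, at 10.99.

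Across the complexes, 12 of the 79 genes (15.2%) were lower with groups that did not overlap, where 27.1% of all genes were, and 1 was higher. Of the 12, 5 belong to complex I, 3 to complex III, 1 to complex IV, 2 to complex V and 1 is an Ndufaf gene. A split of the genes into core subunits and others was made after the values were seen and carries no test. The core was taken as the nuclear-encoded core subunits of complex I, the complex II genes, Cyc1 and Uqcrfs1 of complex III and the alpha to epsilon subunits of the ATP synthase, as far as the table holds them, 15 of them tested. Its medians in Mef2c-deficient replicates 1 to 3 were -0.39, -0.66 and -0.15, against -0.31, -0.52 and 0.51 over the other 64 genes. In replicate 3, 8 of the 15 core genes lay below all control samples and 4 above, while of the other 64 genes 8 lay below and 44 above. The core shares, 53.3% and 26.7%, were near the 47.5% and 30.3% of all genes.

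Of the 7 genes under the filter, Sdha, the flavoprotein of complex II, was 6.52, 6.38 and 6.11 in control samples and 8.38, 6.60 and 7.28 in Mef2c-deficient samples. Cox5b was 4.70 to 5.18 and 5.20 to 6.17 in the same order, and Atp5g1, of the c-ring, 6.56 to 6.71 and 5.15 to 6.20. Groups did not overlap for these 3, where over all genes tested they did not for 27.1% as lower and 10.6% as higher. That share was not counted for probe sets under the filter. Ndufa12, Cox7b2, Cox8a and Atp5g2 overlapped. All 7 read among the dimmer probe sets of the table, and with them in the fit, p was under 0.05 before adjustment for 7 of 86 genes as lower and for 4 as higher (8.14% and 4.65%, against 15.4% and 8.32% of all genes), and none passed after it. A further 6 probe sets carried a respiratory symbol together with another and were left out by the rule, with differences from -0.45 (Ndufab1) to 0.72 (Ndufb4).

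The sign of these medians changed with the scaling. Quantile normalization moved the median over all genes from -0.36 to -0.10 and that over the 79 genes to 0.10, cyclic loess moved them to -0.04 and 0.23, and centring on the kept probe sets moved them to -0.07 and 0.14. Relative to all genes, the 79 genes lay 0.20 higher on the deposited values and 0.20 to 0.27 higher under these scalings, but 0.06 lower without Mef2c-deficient replicate 3 and 0.19 lower with no filter on dim probe sets. With no filter the median over all genes moved from -0.36 to 0.07, while that of the respiratory genes was -0.12. In the brightest of 10 groups of the genes tested, which held 46 of the 79, the medians were -0.14 over these 46 and -0.44 over all genes. Under each of these scalings Atp5a1, Atp5b, Cyc1, Uqcrc1, Uqcrq, Ndufa10 and Ndufaf1 kept a lower and Ndufc2 and Ndufaf8 a higher mean, though Uqcrc1 came to -0.09 and Cyc1 to -0.13 after cyclic loess. Ndufs3 turned to 0.17 after cyclic loess and to 0.02 with centring on the kept probe sets, and Ndufv1 turned to 0.05 after cyclic loess. Leaving out arrays moved the counts of genes with p under 0.05 before adjustment from 5 lower and 2 higher. They became 1 and 1 when control replicate 1 was left out (12.4% and 2.12% of all genes), 3 and 1 for control replicate 2 (16.4% and 3.03%), 3 and 0 for control replicate 3 (12.6% and 2.90%) and 3 and 2 for Mef2c-deficient replicate 1 (18.0% and 5.89%). Without Mef2c-deficient replicate 2 they were 5 and 6 (21.7% and 4.60% of all genes), so the share of higher respiratory genes, 7.59%, was then above that of all genes. With arrays weighted by their spread, which gave Mef2c-deficient replicate 3 the lowest weight (0.25) and control replicate 1 by far the highest (7.73, against 1.52 and 0.60 for the other control arrays), Ndufc2 and Ndufaf1 passed with adjusted p values of 0.0395 and 0.0496, where the other alternatives reached up to 0.340 and 0.371.

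**Figure D4:**
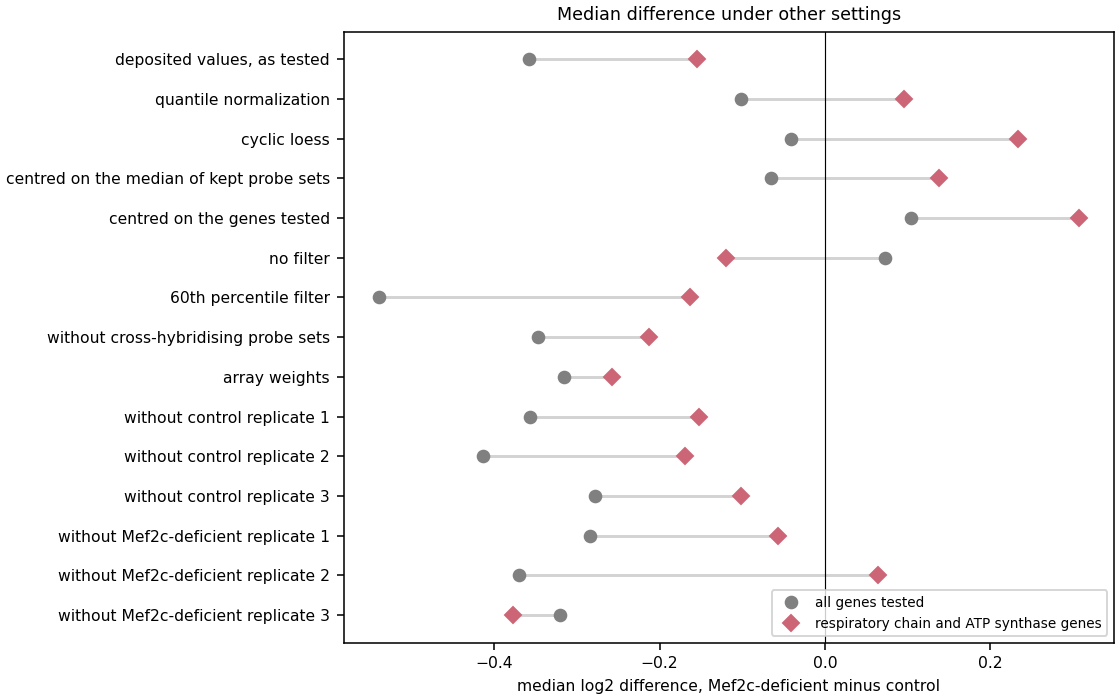
Median log2 difference, Mef2c-deficient minus control (horizontal axis), of the respiratory chain and ATP synthase genes (red) and of all genes tested (grey) under each setting (vertical axis). The red median lay at -0.15 on the deposited values, above 0 under 4 scalings and without Mef2c-deficient replicate 2, and left of the grey median with no filter and without Mef2c-deficient replicate 3.

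Genes that build, feed or regulate the chain were read from lists, to be set beside the median of -0.36 and the 20.9% lower genes over all genes tested. Pyruvate dehydrogenase and citric acid cycle genes, which deliver its electrons, had 15 tested genes that all had a lower mean, with a median of -0.70, and p was under 0.05 before adjustment for 6 of them, all lower, while none passed after it. Dlat, the acetyltransferase subunit of pyruvate dehydrogenase, was 11.98, 12.18 and 12.10 in control samples and 10.99, 10.91 and 11.11 in Mef2c-deficient samples, a difference of -1.08 (SE 0.26, adjusted p = 0.0977). Pdha1, of the same enzyme, differed by -1.18 (SE 0.33, adjusted p = 0.115). Here Mef2c-deficient replicate 3 did not stand apart, since the array medians were -0.76, -0.64 and -0.78.

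Regulators of respiratory genes and of mitochondrial DNA had 20 tested genes with a median of -0.90, of which 8 had p under 0.05 before adjustment, all lower, and none passed after it. Nrf1, which binds the motif shown above in Cycs and Atp5j, was 14.74, 14.70 and 14.99 in control samples and 13.35, 13.37 and 12.61 in Mef2c-deficient samples, a difference of -1.70 (SE 0.32, adjusted p = 0.0824). Gabpb1, a subunit of the GABP factor, differed by -1.11 (SE 0.32, adjusted p = 0.118). The array medians of this list were -0.84, -0.61 and -0.80. Among the respiratory genes, the 10 tested ones with an NRF1 core had a median difference of -0.24 and the 54 tested ones with a promoter but no such core -0.11. For the Ets core the medians were -0.06 over 18 genes and -0.13 over 46, and for the YY1 core -0.15 over 9 and -0.11 over 55.

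Assembly factors by other names were read by complex, with genes counted as lower where p was under 0.05 before adjustment. For complex I, 13 tested genes had a median of -0.51 with 4 lower and none higher, among them Ecsit, at 11.83, 11.83 and 11.86 in control and 10.17, 11.05 and 11.06 in Mef2c-deficient samples, and Aifm1, with a difference of -1.11 (SE 0.37). For complex II, 4 genes had a median of -0.19 with 1 lower, Sdhaf3 (10.23, 10.25 and 10.59 in control and 9.83, 8.78 and 9.47 in Mef2c-deficient samples), while Sdhaf2 differed by -0.72 (SE 0.36). For complex III, 6 genes had a median of -0.29 with none lower or higher, and Uqcc1 and Uqcc3 both differed by -0.53. For complex IV, 18 genes had a median of -0.62 with 4 lower and none higher. Of these, Cmc2 was 10.38, 10.81 and 11.09 against 9.25, 8.01 and 9.45, a difference of -1.86 (SE 0.44, adjusted p = 0.0975), and Cox15, which makes haem a, differed by -1.28 (SE 0.35, adjusted p = 0.113). For the ATP synthase, 4 genes had a median of -0.24 with 1 lower, Atpaf2 (-0.94, SE 0.35), and the inhibitor Atpif1 differed by -0.39 (SE 0.41). Coenzyme Q synthesis had 11 genes with a median of 0.03 and 1 lower, Coq7 (-1.18, SE 0.39), and Coq9 differed by -0.72 (SE 0.32). None of the genes of these lists passed the adjusted p. The 13 subunit genes of mitochondrial DNA were not analysed here.

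**Figure D5:**
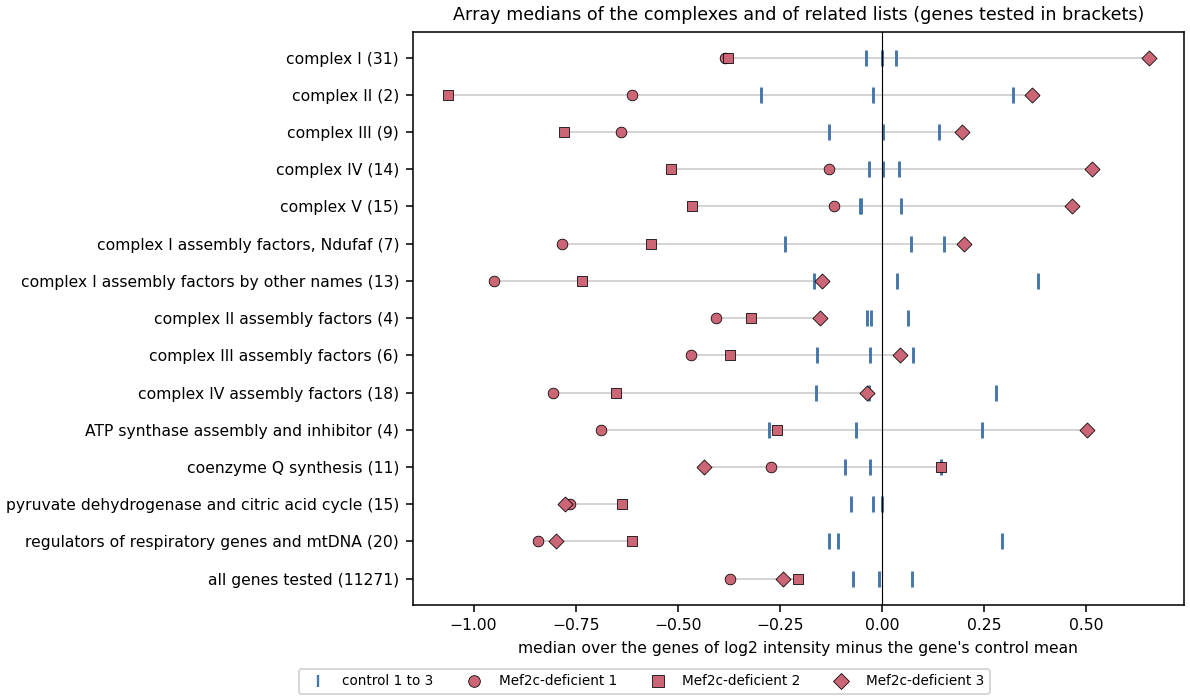
Medians over the genes of each list (vertical axis, genes tested in brackets) of log2 intensity minus the gene's control mean (horizontal axis), for each control array (blue bars) and each Mef2c-deficient array (red symbols). The 3 Mef2c-deficient arrays lie together for the citric acid cycle list, between -0.78 and -0.64, and apart for complexes I to V, where replicate 3 is the highest.

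Dividing cell genes, 14 of 15 tested, all had a lower mean, with a median of -1.64. For 13 of them, all lower, limma gave p under 0.05 before adjustment (lowest adjusted p 0.0745), where 20.9% of all genes were lower. Mki67 and Pcna, proliferation genes, differed by -1.06 (SE 0.44) and -0.62 (SE 0.30). Their array medians in Mef2c-deficient replicates 1 to 3 were -1.45, -2.31 and -1.33, so they lay below the control arrays in every replicate while the respiratory genes did so in replicates 1 and 2. The part of cell division, and of the share of large and small pre-B cells, in the values above was not tested. For the remaining marker lists, T and NK cell genes (2 of 8 tested, Cd3d and Cd5) had a median of 0.96. Erythroid genes (4 of 8 tested, Slc4a1 and Alas2 with the highest levels) had one of 0.70. Cd5 and the erythroid gene Klf1 had control means of 7.06 and 6.90, under the filter value of 7.26. They passed through their Mef2c-deficient means, 7.72 and 7.71, so these medians rest in part on that selection. The monocyte marker Cd14 passed in the same way, with means of 7.18 and 9.16. Mature B and plasma cell genes (7 of 8 tested, Ms4a1 and Jchain with the highest levels) had a median of 0.46. The last list was mixed, since 3 of its 7 tested genes had a lower mean, and Sdc1, a plasma cell surface proteoglycan, was 14.60, 14.29 and 14.49 in control samples and 13.01, 11.65 and 11.64 in Mef2c-deficient samples, a difference of -2.36 (SE 0.42, adjusted p = 0.0781). The other two were Fcer2a (-1.59) and Prdm1 (-0.18).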

How the data were processed

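Total RNA of sorted pre-B cells was hybridised by the authors to Affymetrix mouse expression arrays. Per the study's methods, values were background adjusted, quantile normalized and summarised by RMA, and probes without detection calls in most replicates were excluded. The submitters' processing notes name RMA and limma. Tool versions and the genome build are not given in those sources. The authors deposited linear intensity values of 23913 probe sets for 6 samples (3 control and 3 Mef2c-deficient, grouped by title), all columns of which were used.

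Deposited values, which ran from 3.33 to 2144600, were log2-transformed without an offset. Symbols came from the platform's annotation (17690 probe sets with 1 symbol, 524 with several, 5699 with none in it), which can be old; 17539 matched a RefSeq table by identifier. AFFX controls and probe sets with several or no symbols were left out. Probe sets above the 40th percentile of mean log2 were kept, 1 per gene by the highest mean. The group term was fitted by lmFit and eBayes of limma 3.58.1 under R 4.3.3 (two-sided), with Benjamini-Hochberg adjustment over 11271 genes, and the steps were tested on simulated data. The number of arrays limits the precision. Tables and figures were made with Python 3.11.15, pandas 2.3.3, numpy 2.4.6 and matplotlib 3.10.9. The genes and lists were chosen with earlier results of these data known. Named genes were, per complex, up to 4 with the smallest p in each direction, all Sdh, cytochrome c and listed isoform genes, and 2 per list. No label states a pairing, and samples with the same replicate number in the titles were read as possible pairs. Deviations from the group means correlated at 0.348, 0.226 and 0.373 between same-numbered samples and at -0.309 to 0.129 between others. Deviations cancel within each group, so these correlations depend on each other. Alternatives were another scaling, filter, offset, log base, probe set rule or variance model, the methods' t-test, a replicate block and leaving out each array. Some genes are not reported here.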

Additional observations from a re-analysis of the deposited data

Results flagged for a closer look

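Groups of 3 arrays were not tested for single outlying samples, and there is 1 contrast, so only probe sets outside the tests could be singled out. The bioB hybridisation controls, bacterial transcripts added to every sample, lay above all control arrays on all 3 Mef2c-deficient arrays for all 6 probe sets, with a median difference of 1.74 and single-array deviations from the control mean of 0.95 to 2.74. A dim probe set shared by Ndufa13 and Yjefn3, left out for its 2 symbols and under the filter, was 6.14 to 6.30 in control and 6.33 to 6.63 in Mef2c-deficient samples, a difference of 0.23. The part of either in the values of the respiratory genes was not tested.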

How the results depend on the processing

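No gene passed an adjusted p of 0.05 in 20 of 21 alternatives for either direction, and with array weights 1 was lower and 1 higher. Before adjustment, the count of lower genes at p under 0.05 was 11 with array weights (13.9%, against 26.1% of all genes). It was 0 with arrays centred on the genes tested (6.48% of all genes) or on the kept probe sets (10.7%). After cyclic loess it was 2 (2.53%, against 10.2% of all genes), and leaving out 1 array at a time gave 1 to 17. The count of higher genes was 7 with arrays centred on the genes tested (8.86%, against 20.2%). It was 4 for centring on the kept probe sets, cyclic loess and quantile normalization (5.06% each, against 14.0%, 8.26% and 7.22% of all genes). No filter also gave 4 (4.65%, against 8.32%), as did quantile normalization without Mef2c-deficient replicate 3 (5.06%, against 9.56%). A trended and robust variance gave 1 (1.27%, against 5.79%), the methods' t-test 0 (against 5.69%), and leaving out 1 array 0 to 6. Centring on the genes tested moved the median of all respiratory genes to 0.31, of complex I to 0.34, III to 0.19, IV to 0.52 and V to 0.49, and turned that of the Ndufaf genes to 0.062. Cyclic loess gave 0.23 for all of them, 0.23 for complex III and 0.44 for complex V. With 1 array left out, complex V ran from -0.37 to 0.31. With no filter the respiratory genes lay -0.19 from the median of all genes, which itself moved to 0.07. Centring on the genes tested, and quantile normalization without that array, were chosen after seeing the data. With the replicate block, 6 genes were lower (7.59%, against 23.1% of all genes) and 2 higher (2.53%, against 6.72%) before adjustment. None passed after it, and no other call changed. The causes of these moves were not tested. Depth has no direct measure on arrays, and dim probe sets, such as those of the 7 untested genes, limit what can be said.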
